A study of Mus musculus with 7 samples.

Results

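The Eph-ephrin, netrin and Slit-Robo genes encode guidance cues of growing axons and migrating cells, together with the receptors that read them. They were taken by gene symbol, as all Eph receptors, ephrins, netrins, netrin-G proteins, UNC5 receptors, Slits and Robo receptors with Dcc and Neo1. Of 19938 genes measured on the arrays, 39 belonged to the families, 16 ligands and 23 receptors. Ephb2 and Ntng2 are not analysed here, because neither had a probe set assigned to it alone.

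Mouse embryos carrying Wnt1-Cre together with R26R-EYFP were taken at embryonic day 17.5. Wnt1-Cre is a recombinase driven by a promoter active in the neural crest, and R26R-EYFP is a reporter that makes yellow fluorescent protein once Cre has acted. Cells of the whole bowel were sorted by fluorescence into a YFP-positive population, the enteric neural crest-derived cells (ENCDC), with 4 arrays, and a YFP-negative population of the other bowel cells, with 3 arrays. Both populations came from embryos with the same 2 alleles, and the comparison addresses which genes mark ENCDC late in the development of the enteric nervous system.

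ENCDC migrate through the gut wall, settle as ganglia and send out axons, and form the neurons and glia of the bowel. Eph receptors are receptor tyrosine kinases that bind ephrins on neighbouring cells. Ephrin-A proteins are held in the membrane by a lipid anchor and ephrin-B proteins span it, so that contact can signal into both cells. Netrins are laminin-related proteins that attract through Dcc and Neo1 and repel through UNC5 receptors, and Slits are secreted repellents read by Robo receptors.

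The arrays separated the populations by their markers, although not for every cell type. The median level over all genes was 5.87 to 5.92 on the log2 scale on each array. All 11 neuron markers and 6 of 7 markers of enteric glia were higher in YFP-positive cells, and all 9 myeloid and 9 of 10 fibroblast markers were lower. Of 12 epithelium markers 0 differed by the limma test, and 1 had an unadjusted p under 0.05. The mean of the epithelium list was 7.39 to 8.50 on the YFP-positive and 8.02 to 8.09 on the YFP-negative arrays. Within the YFP-positive group, arrays 3 and 4 had lower means of the neuron list (8.99 and 8.79) than arrays 1 and 2 (9.37 and 9.31). They had higher means of the smooth muscle list (9.06 and 9.50, against 7.83 and 8.46), the fibroblast list (8.23 and 8.46, against 7.44 and 7.69) and the epithelium list (8.28 and 8.50, against 7.39 and 7.72). The YFP-negative arrays differed too, with means of the erythroid list (3 genes) of 5.90, 7.92 and 10.44 on arrays 1 to 3. Their means of the lymphoid list were 6.37, 6.70 and 7.38. Array 3 had the lowest mean of the smooth muscle list (9.75, against 10.25 and 10.17) and of the fibroblast list (9.27, against 9.85 and 9.87). In sorted pools, fewer cells of a type and less RNA per cell cannot be told apart, and how far these cells bear on the values below was not tested.

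**Figure D1:**
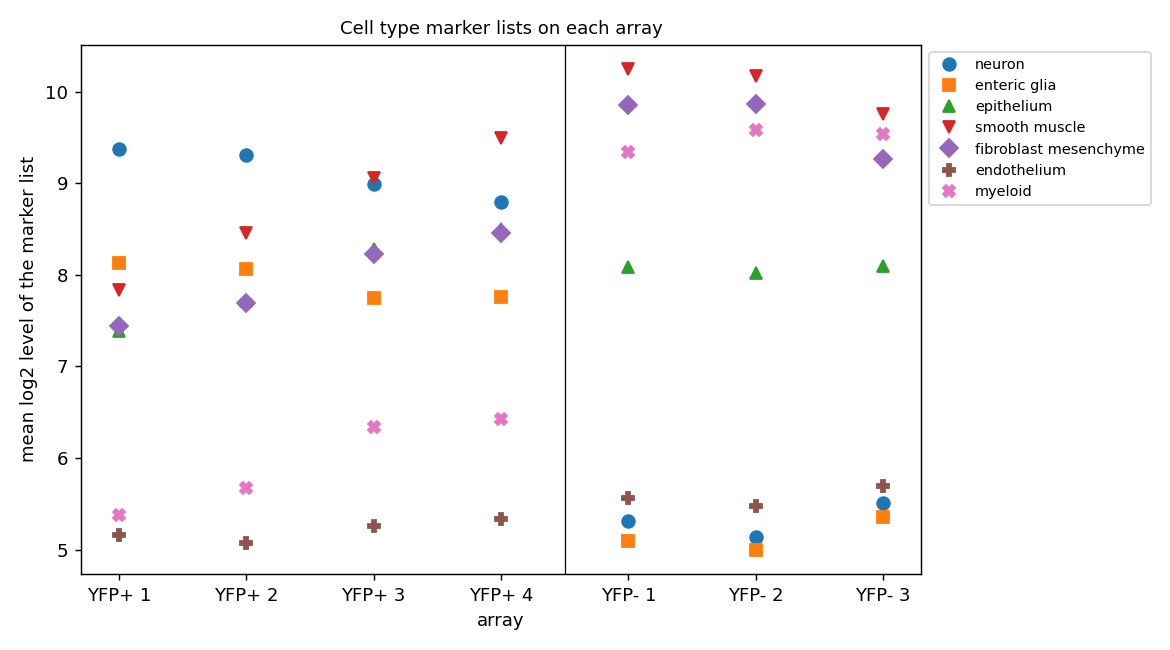
Mean log2 level of 7 cell type marker lists (y axis) on each of the 7 arrays (x axis), with YFP-positive arrays left of the line and YFP-negative arrays right of it. The neuron list lies between 8.79 and 9.37 on the YFP-positive arrays and between 5.14 and 5.51 on the YFP-negative arrays, while the epithelium list overlaps between the groups.

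Of the 39 guidance genes 10 differed between ENCDC and the rest of the bowel, and they came from each of the 3 pathways. Slit1, Efna5, Efnb3, Epha2, Epha5, Epha6 and Unc5a were higher in YFP-positive cells, and Epha3, Ephb1 and Ntn1 were lower. Thus 7 of the 39 genes were higher, beside 8.39% of all genes tested, and 3 were lower, beside 9.11%. A gene was called when limma's moderated test of the log2 levels gave an adjusted p under 0.05 over all genes, and fold changes are YFP-positive minus YFP-negative. The labels do not say that the arrays of a group came from separate litters, so a p-value here covers the spread among these arrays, which may be technical.

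Calls fell on ligands and on receptors. Among ligands 3 of 16 were higher and 1 was lower, with a median log2 fold change of 0.07, and among receptors 4 of 23 were higher and 2 were lower, with a median of 0.13. The median over all 19938 genes was 0.01. The absolute log2 fold change was under 0.5 for 32 of the 39 genes (82.05%), as for 81.91% of all genes, and at least 1 for 4 of them, namely Slit1, Epha5, Epha3 and Ephb1. For each of the 29 genes that were not called, the 95% interval of the fold change lay within 2-fold in either direction. The bounds ran from -0.78 to 0.74 on the log2 scale. This holds for the probe sets used, and the other probe set of Ntng1 gave a log2 fold change of 1.38 ± 0.20. Intervals of genes with tied values, described below, may be too narrow, and fold changes of dim genes may be understated. An interval within 2-fold was found for 34 of the 39 guidance genes and 16991 of all 19938 genes, called or not.

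**Figure D2:**
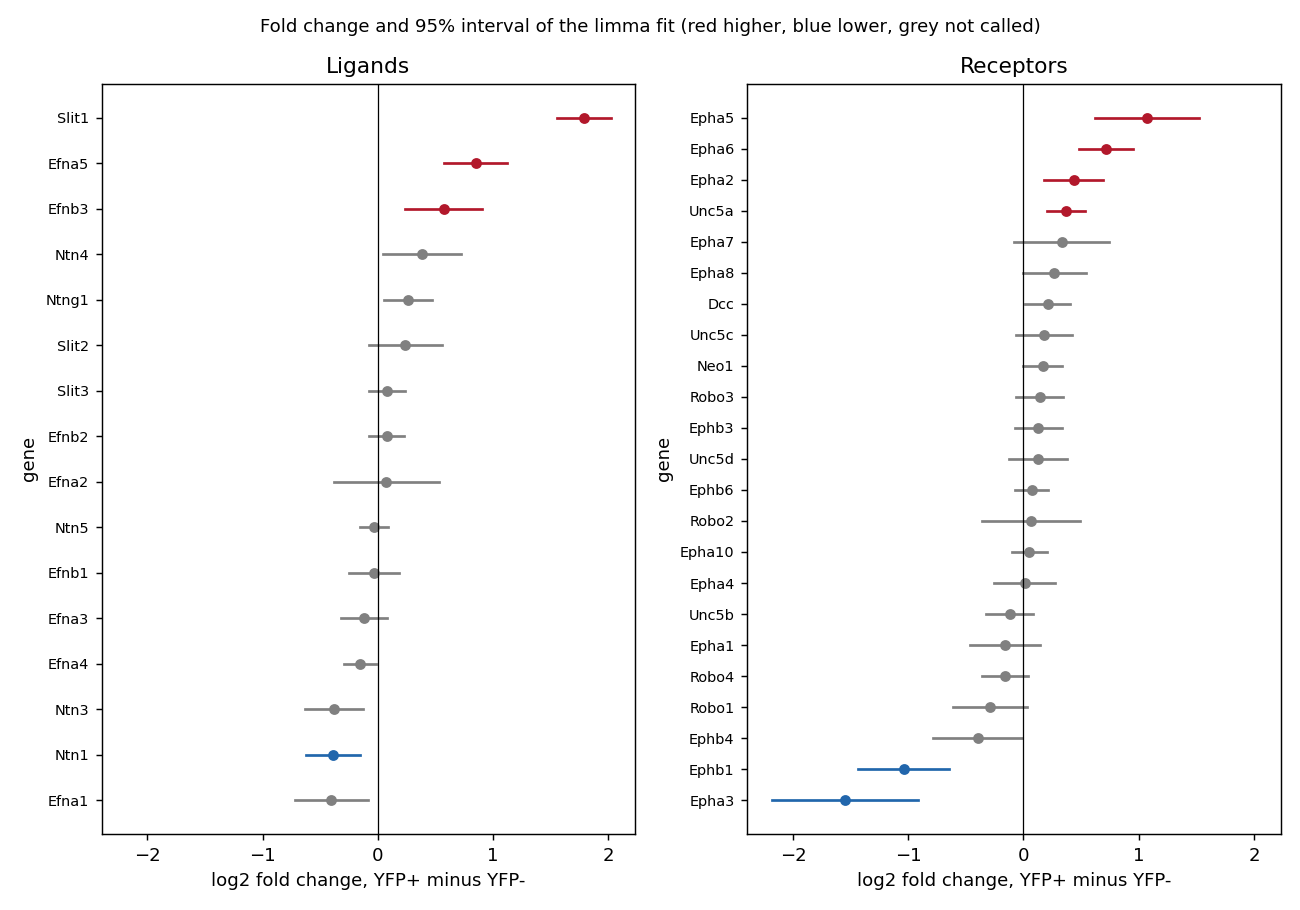
Log2 fold change, YFP-positive minus YFP-negative (x axis), of the 16 ligand and 23 receptor genes (y axis), with the 95% interval of the limma fit as a bar, red for higher, blue for lower and grey for genes not called. Slit1 at 1.79 lies farthest to the right and Epha3 at -1.55 farthest to the left, and most other intervals are close to 0.

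Every YFP-positive array stood above every YFP-negative array for 9 of the 39 genes, beside 13.5% of all genes tested, and below for 4, beside 13.5%. These 13 genes include all 10 that were called, together with Ntng1, Neo1 and Efna4. Without YFP-positive arrays 3 and 4 the same 7 genes were higher, beside 6.48% of all genes, and 3 were lower, beside 6.98%. In that comparison Epha3 and Ephb1 remained lower, Ntn1 was no longer called (limma adjusted p = 0.137) and Epha1 was called as lower (-0.35, limma adjusted p = 0.0495). With YFP-negative array 2 left out, 4 genes were called as higher. In that fit the number of all genes called, in either direction, fell as well, from 3489 to 2368. Against a 1.5-fold rather than any difference, only Slit1 was called.

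Slit1, a secreted repellent of axons known mainly from the nervous system, had the largest difference of the 39 genes. Its log2 level was 6.71, 6.57, 6.84 and 6.68 on YFP-positive arrays 1 to 4 and 4.91, 5.08 and 4.75 on YFP-negative arrays 1 to 3. The groups were far apart, and no array came near the other group. Slit1 was 3.45-fold higher in ENCDC (log2 fold change 1.79 ± 0.10 SE, limma adjusted p = 7.36e-05), and the call held in each fit that left out an array. The adjusted p was at most 9.54e-04 in those fits.

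Its paralogs Slit2 and Slit3, which are read by the same Robo receptors, did not pass. Slit2 lay at 8.76, 8.77, 8.68 and 8.84 on the YFP-positive and at 8.86, 8.39 and 8.32 on the YFP-negative arrays, so that the ranges overlapped through YFP-negative array 1. Its log2 fold change was 0.24 ± 0.13 (limma adjusted p = 0.292), and without that array it was 0.41 and was called (limma adjusted p = 0.0148). Slit3 differed by 0.08 ± 0.07 (limma adjusted p = 0.471), with values of 8.28 to 8.37 against 8.16 to 8.35. Levels of different probe sets are not compared here, since each probe set has its own response.

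None of the 4 Robo receptors was called by limma, and 0 of the 4 had an unadjusted p under 0.05. Robo1, a main Slit receptor of axons, was at 7.40, 7.48, 7.80 and 7.78 in YFP-positive cells and at 7.79, 8.12 and 7.79 in YFP-negative cells (log2 fold change -0.29 ± 0.14, limma adjusted p = 0.214). The lower YFP-positive values were those of arrays 1 and 2. Robo2 had a narrow range in YFP-positive cells, 7.21 to 7.32, and a wide one in YFP-negative cells, 6.84, 7.66 and 7.08 (0.06 ± 0.18). Robo3, a receptor of commissural axons, differed by 0.14 ± 0.08, and Robo4, an endothelial receptor, by -0.16 ± 0.09. The mean of the endothelium list was 5.07 to 5.33 in YFP-positive and 5.48 to 5.69 in YFP-negative cells, with 3 of its 11 genes lower and 1, Kdr, higher. Its part in the Robo4 value was not tested.

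**Figure D3:**
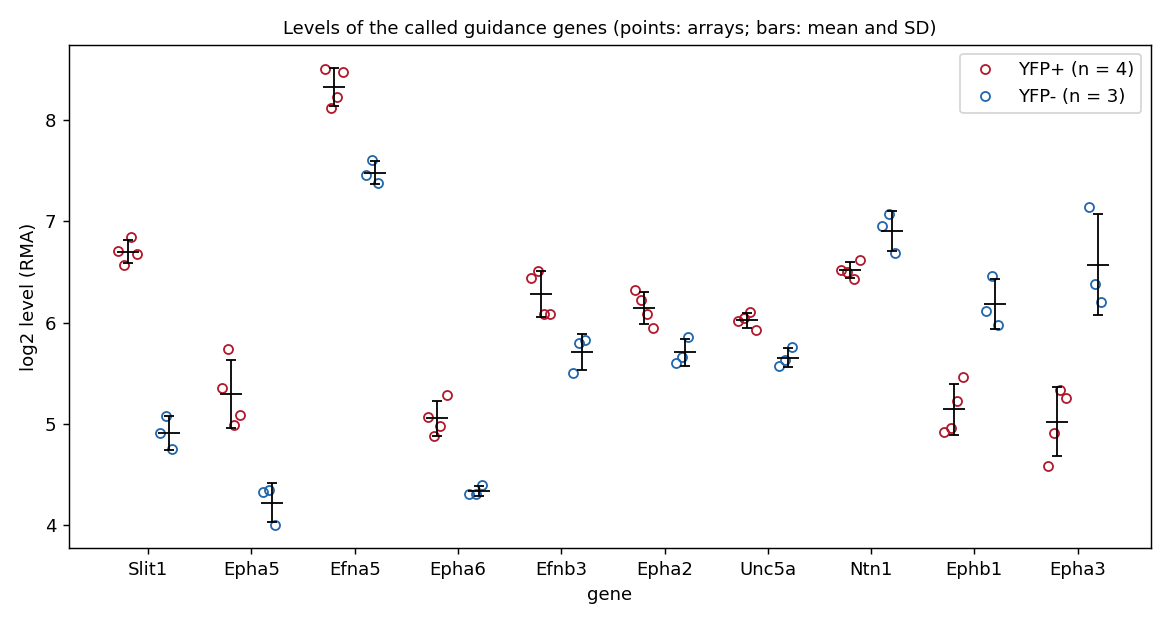
Log2 levels (y axis) of the 10 called guidance genes (x axis), ordered by fold change, with a point for each of 4 YFP-positive (red) and 3 YFP-negative (blue) arrays and bars for the mean and SD. Slit1, at 6.57 to 6.84 against 4.75 to 5.08, shows the widest gap, and Unc5a and Ntn1 have narrow gaps.

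Among ephrins, Efna5 and Efnb3 were higher in ENCDC and the other 6 were not called. Efna5, an ephrin-A best known as a repellent in the mapping of sensory axons, was at 8.50, 8.12, 8.22 and 8.47 on the YFP-positive and at 7.45, 7.60 and 7.38 on the YFP-negative arrays. All YFP-positive values lay above 8, and all YFP-negative values below. The gene was 1.80-fold higher (log2 fold change 0.85 ± 0.12, limma adjusted p = 0.00265) and stayed called without any single array, at an adjusted p of at most 0.0160.

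Efnb3, a transmembrane ephrin that acts as a midline barrier in the spinal cord, had levels of 6.44, 6.50, 6.09 and 6.09 in YFP-positive cells. On the YFP-negative arrays it was at 5.50, 5.80 and 5.83. The gene was 1.48-fold higher (0.57 ± 0.14, limma adjusted p = 0.0336). Its larger values were on YFP-positive arrays 1 and 2, where the mean of the neuron list was also larger, and the part of neurons was not tested. Leaving out YFP-positive array 3 or 4 kept the call, and leaving out any one of the other 5 arrays lost it. The adjusted p was 0.0885 and 0.0809 without YFP-positive arrays 1 and 2, and 0.108, 0.0811 and 0.0555 without YFP-negative arrays 1, 2 and 3.

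Fold changes of the 6 ephrins that were not called lay between -0.41 and 0.08 on the log2 scale. Efnb1 had a log2 fold change of -0.03 ± 0.09 and turned to 0.04 without YFP-positive array 4. Efnb2, the arterial ephrin, stood at 7.25, 7.25, 7.44 and 7.35 against 7.25, 7.24 and 7.25 (0.08 ± 0.07). Efna1, a ligand found in epithelia and vessels, stood at 5.51, 5.43, 5.88 and 5.57 against 6.22, 5.96 and 5.84 and had the most negative value of the ligands (-0.41 ± 0.13, limma adjusted p = 0.0864). Without YFP-positive array 3, its highest YFP-positive value, it was called as lower (-0.50, limma adjusted p = 0.0375). Efna4 was lower on every YFP-positive array, 6.22 to 6.38 against 6.44 to 6.48, yet the difference was small (-0.16 ± 0.06, limma adjusted p = 0.118). Efna2 (0.07 ± 0.19) and Efna3 (-0.12 ± 0.08) completed the class, and Efna2 had the widest YFP-negative spread of the ephrins, from 5.89 to 6.79.

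EphA receptors, which mainly bind ephrin-A ligands, went in both directions. Of 9 measured, Epha2, Epha5 and Epha6 were higher and Epha3 was lower in ENCDC. Epha5, a receptor of central neurons, was at 5.36, 5.74, 4.99 and 5.09 against 4.33, 4.35 and 4.0, and was 2.10-fold higher (log2 fold change 1.07 ± 0.19, limma adjusted p = 0.00874). Its highest values were on YFP-positive arrays 1 and 2, as for the neuron list, and the part of neurons was not tested. Of the other higher genes, Efnb3 and Epha2 shared this order. Slit1 and Unc5a were highest on array 3 and Epha6 on array 4, and Efna5 was lowest on array 2. Epha6, also mainly a neural receptor, was at 5.07, 4.88, 4.98 and 5.29 against 4.31, 4.31 and 4.40. The YFP-negative values were nearly equal to each other, and the gene was 1.64-fold higher in ENCDC (0.72 ± 0.10, limma adjusted p = 0.00310). Both calls held without any single array, at an adjusted p of at most 0.0324 for Epha5 and 0.0196 for Epha6. Both genes were among the 7 of the 39 with a mean level of at most 5.06, the dim end of all genes. A level there can be largely background and a fold change understated. The YFP-negative mean of Slit1 (4.91) and the YFP-positive mean of Epha3 (5.02) also lay under 5.06.

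Epha2, a receptor of epithelia that also acts in cell migration, was at 6.32, 6.23, 6.08 and 5.95 in YFP-positive and at 5.60, 5.67 and 5.86 in YFP-negative cells. The lowest YFP-positive value, on array 4, was close to the highest YFP-negative value. The gene was 1.35-fold higher (0.44 ± 0.11, limma adjusted p = 0.0328). The call was lost without YFP-positive array 1, 2 or 3 (adjusted p = 0.0712, 0.0911 and 0.0651) and without YFP-negative array 1 or 2 (0.110 and 0.113).

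Epha3 had the most negative fold change of all 39 genes. This receptor, known from mesenchyme and from motor axons, was at 4.59, 4.91, 5.34 and 5.26 in YFP-positive cells and at 7.13, 6.38 and 6.20 in YFP-negative cells. The groups did not overlap, and within ENCDC the values of arrays 3 and 4 were the higher ones. The gene was 2.93-fold lower (log2 fold change -1.55 ± 0.27, limma adjusted p = 0.00785), and it was called without any single array (adjusted p of at most 0.0322). The mean of the fibroblast list, at 7.44, 7.69, 8.23 and 8.46 on YFP-positive arrays 1 to 4 and 9.85, 9.87 and 9.27 on the YFP-negative arrays, was likewise higher on arrays 3 and 4. So were the means of the smooth muscle and epithelium lists, given above, and of the myeloid list (6.34 and 6.42, against 5.37 and 5.67). The part of any of these cells in the Epha3 values was not tested.

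The other EphA receptors were not called. Epha4, which binds ephrins of either class, had the same value of 6.64 on all 3 YFP-negative arrays and 6.38 to 6.85 on the YFP-positive arrays (0.01 ± 0.11), and its sign turned without YFP-positive array 1 (-0.05) or 4 (-0.02). Epha7 was at 6.87, 7.30, 6.87 and 7.01 against 6.87, 6.87 and 6.31 (0.33 ± 0.17, limma adjusted p = 0.261). Epha8 (0.27 ± 0.12), Epha1 (-0.16 ± 0.13) and Epha10, which lacks kinase activity (0.05 ± 0.06), had small differences. Epha1, an epithelial receptor, was lower on YFP-positive arrays 1 and 2 (4.69 and 4.65) than on arrays 3 and 4 (5.05 and 5.08), as was the epithelium list given above, and the part of such cells was not tested.

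EphB receptors, which bind ephrin-B ligands, were lower in 1 of 4 cases. Ephb1, a receptor of retinal axons that turn at the midline, was at 4.92, 4.96, 5.23 and 5.46 in YFP-positive and at 6.12, 6.46 and 5.98 in YFP-negative cells. The YFP-negative values were all above the highest YFP-positive value, that of array 4. Ephb1 was 2.06-fold lower in ENCDC (log2 fold change -1.04 ± 0.17, limma adjusted p = 0.00567), and was called without any single array. The other probe set of Ephb1, which has a lower mean, gave -0.26 ± 0.19 and was not called when every probe set was tested (limma adjusted p = 0.407).

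Ephb4, the venous partner of Efnb2, was at 6.08, 6.39, 6.68 and 6.59 against 6.89, 7.01 and 6.60 (-0.40 ± 0.16, limma adjusted p = 0.157). The YFP-positive value of array 3 passed the lowest YFP-negative value. Ephb3, which positions cells along the crypts of the gut epithelium (0.13 ± 0.09), and Ephb6, whose kinase is inactive (0.07 ± 0.06), had small differences and were not called.

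The bases before the start site are shown for the called genes with the largest change in each direction that had an entry in the RefSeq promoter table (build GRCm38.p6), so that promoters of higher and of lower Eph genes can be read side by side. Each run holds 150 bases that end at the base before the annotated start, on the strand of the gene, and capitals mark CpG dinucleotides. Epha5 lies on the minus strand at chr5:84417383-84417532, Efna5 on the minus strand at chr17:62881318-62881467, Epha3 on the minus strand at chr16:63864176-63864325 and Ephb1 on the minus strand at chr9:102354694-102354843.
Epha5: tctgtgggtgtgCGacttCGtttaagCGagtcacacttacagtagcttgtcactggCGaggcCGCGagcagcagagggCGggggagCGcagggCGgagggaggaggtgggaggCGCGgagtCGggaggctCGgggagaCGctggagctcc
Efna5: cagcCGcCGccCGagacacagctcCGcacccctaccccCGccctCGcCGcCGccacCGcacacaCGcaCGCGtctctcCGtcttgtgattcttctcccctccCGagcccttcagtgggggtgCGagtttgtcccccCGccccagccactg
Epha3: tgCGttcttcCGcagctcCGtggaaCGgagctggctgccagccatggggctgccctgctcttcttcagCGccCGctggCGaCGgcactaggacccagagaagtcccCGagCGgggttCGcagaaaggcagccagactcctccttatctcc
Ephb1: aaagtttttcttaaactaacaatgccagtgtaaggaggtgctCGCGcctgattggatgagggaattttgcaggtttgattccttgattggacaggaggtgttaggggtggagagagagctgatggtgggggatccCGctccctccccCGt

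Promoters of 34 of the 39 guidance genes were used, 39 in all, with none of Slit1, Efnb3, Ntn1, Unc5d or Dcc. Guidance promoters on a single chromosome had been left out before this count, so a gene without a promoter here need not lack an entry. The set of all promoters was not filtered in that way. In the 250 bases before the start, the median number of CpG was 20 in 5 promoters of higher genes, 13 in 2 of lower genes and 17.5 in 32 of genes not called, and 6 over all 32851 promoters of the table. Efna5 had 32 CpG, a number reached by 4.58% of all promoters. Epha8, Neo1 and Slit3, which were not called, had more, at 46, 45 and 35. In the printed part Epha5 had 14 and Efna5 16, while Epha3 had 11 and Ephb1 had 4.

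Motifs of factor families known from ENCDC were searched in the same windows. The E-box CANNTG, which reads the same on either strand, was found in 1 of 5 promoters of higher genes (Epha6), 0 of 2 of lower genes, 15 of 32 of guidance genes not called (46.9%) and 66.2% of all promoters. The Sox motif ACAAAG, searched on both strands, was in 0 of these 7, in 2 of the 32 and in 16.5% of all, and the Sox motif AACAAT was in 1, that of Ephb1, in 0 of the 32 and in 9.42% of all. The homeobox motif TAATTA was in 1, that of Epha5, in 2 of the 32 and in 4.84% of all. A match in so short a window is a description of the letters only.

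Among secreted netrins, Ntn1 was lower in ENCDC and the other 3 were not called. Ntn1, the netrin that draws neural crest cells within the gut wall, was at 6.52, 6.50, 6.43 and 6.62 in YFP-positive and at 6.96, 7.07 and 6.69 in YFP-negative cells. The gap between the groups, from 6.62 to 6.69, was small. Ntn1 was 1.31-fold lower (log2 fold change -0.39 ± 0.10, limma adjusted p = 0.0382).

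Of the 10 calls this one was lost most often, namely when any array but YFP-negative array 3 was left out. Without YFP-positive arrays 1 to 4 in turn the adjusted p was 0.0885, 0.0958, 0.0956 and 0.0538, and without YFP-negative arrays 1 and 2 it was 0.117 and 0.118. Its log2 fold change lay between -0.42 and -0.31 in those 6 fits, and was -0.50 without YFP-negative array 3.

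Ntn3 and Ntn4 had fold changes of opposite sign, and the call of each depended on the arrays used. Ntn3 was at 5.51, 5.54, 5.52 and 5.78 against 5.78, 5.99 and 6.13 (-0.38 ± 0.11, limma adjusted p = 0.0521), and it was called as lower without YFP-positive array 4 (adjusted p = 0.0325) or YFP-negative array 1 (0.0343). Ntn4, a netrin of basement membranes, was at 5.88, 5.95, 5.91 and 5.87 against 5.22, 5.47 and 5.87 (0.38 ± 0.14, limma adjusted p = 0.119). YFP-negative array 3 matched the YFP-positive values, and without it Ntn4 was called as higher (0.56, adjusted p = 0.00841). Ntn5 had the same value of 4.72 on 6 arrays and 4.81 on YFP-negative array 3, so its measured difference of -0.03 ± 0.05 rests on that array.

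Ntng1, a lipid-anchored netrin-G that binds Lrrc4c rather than Dcc, gave unlike results at its 2 probe sets. The probe set with the higher mean, used here, was at 5.98, 6.18, 5.98 and 6.03 in YFP-positive and at 5.75, 5.93 and 5.66 in YFP-negative cells (log2 fold change 0.26 ± 0.09, limma adjusted p = 0.0922). Every YFP-positive value was above every YFP-negative value, yet the gene was not called. The other probe set had means of 5.85 and 4.47 and a log2 fold change of 1.38 ± 0.20, and was called as higher when every probe set was tested (limma adjusted p = 0.00406). With the mean of both probe sets, Ntng1 was called as higher (0.82, limma adjusted p = 0.00508).

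Of the 6 netrin receptors, Unc5a was higher in ENCDC. Unc5a, an UNC5 receptor of neurons that mediates repulsion and cell death, was at 6.02, 6.04, 6.10 and 5.92 against 5.57, 5.63 and 5.76. The 2 groups were each narrow and did not overlap. The gene was 1.29-fold higher (log2 fold change 0.37 ± 0.07, limma adjusted p = 0.0120), and the call was lost without YFP-negative array 2 (adjusted p = 0.0504).

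Dcc, the attractive netrin receptor through which ENCDC respond to netrins, was at 5.27, 5.22, 5.09 and 5.09 against 5.09, 4.94 and 4.84 and was not called (0.21 ± 0.08, limma adjusted p = 0.138). Its higher values were on YFP-positive arrays 1 and 2, and those of arrays 3 and 4 equalled that of YFP-negative array 1. Neo1, a Dcc relative that also binds repulsive guidance molecules, was at 8.64, 8.50, 8.48 and 8.63 against 8.43, 8.44 and 8.29 (0.17 ± 0.07, limma adjusted p = 0.168). Unc5c (0.18 ± 0.10), Unc5d (0.13 ± 0.11) and Unc5b, an endothelial UNC5 receptor (-0.12 ± 0.09), were also not called. The limits of their intervals lay between -0.33 and 0.42.

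**Figure D4:**
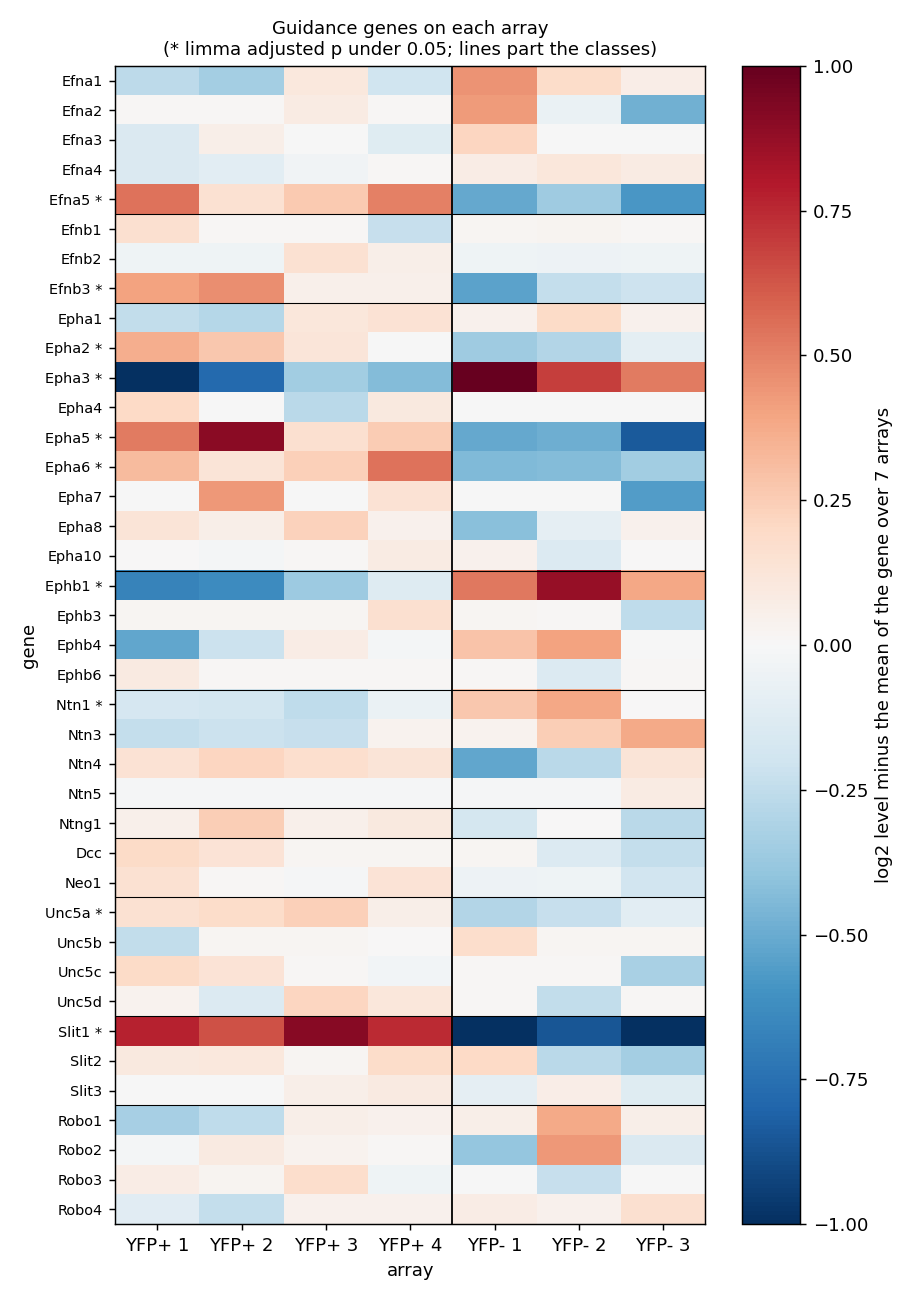
Log2 level of each of the 39 guidance genes (rows, parted by class) minus the mean of the gene over the 7 arrays (colour, with differences beyond 1 in the darkest shade), on each array (columns). Slit1, Efna5 and Epha5 are red on the 4 YFP-positive arrays and blue on the 3 YFP-negative arrays, Epha3 and Ephb1 show the reverse, and most other rows are pale.

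Paralogs of a class were compared by how the difference in log2 level between both genes changed from 1 population to the other, for 10 of 12 listed pairs. An exact two-sided permutation test over the 35 ways to regroup the 7 arrays was used, whose smallest possible p is 0.0286. The 3 pairs Efna4 with Efna5, Ntn1 with Ntn4 and Epha2 with Epha3 reached it, at an adjusted p of 0.0952 over the 10 pairs. A pair on its own could not fall under 0.05 after that adjustment, however large its change, so the count of 0 pairs under 0.05 shows nothing about the pairs. The change of a pair is the difference between the fold changes of its genes given above. Each of the 3 pairs at the smallest p holds a called gene, so that p is not separate support for the calls. Epha2 minus Epha3 changed by 1.99 from the YFP-negative to the YFP-positive cells. Efna4 minus Efna5 changed by -1.01, and Ntn1 minus Ntn4 changed by -0.77. The Robo1 and Robo2 pair changed by -0.35 (exact permutation p = 0.171), and the difference between Dcc and Neo1 changed by 0.04 (exact permutation p = 0.571).

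Listed partner genes of the pathways were called more often as higher than as lower. The lists were written with earlier results of these data known, so the shares describe the listed genes only. Of 64 measured ligands, co-receptors and signalling partners, 22 were higher and 8 were lower in ENCDC, 34.4% and 12.5%, beside the 8.39% and 9.11% of all genes given above. The lower ones fell to 4 when YFP-positive arrays 3 and 4 were dropped, to 1 when YFP-negative array 2 was, to 3 when YFP-positive array 2 was, and to 5 when YFP-positive array 1 or 3 was. The higher ones numbered 16 when arrays 3 and 4 were dropped. Calls over all genes fell as well, from 3489 to 2684 without YFP-positive arrays 3 and 4 and to 2368 without YFP-negative array 2. They were 2574 without YFP-positive array 2, and 2807 and 2856 without YFP-positive arrays 1 and 3 in turn.

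Among 21 partners of Slits and Robo receptors, 7 were higher and 4 were lower. Nell2, a secreted ligand of Robo3, had the largest difference, from 5.40 ± 0.17 in the other bowel cells (SD, n = 3) to 9.20 ± 0.20 in ENCDC (SD, n = 4) on the log2 scale. Its log2 fold change was 3.80 ± 0.13 SE (limma adjusted p = 1.70e-05). The kinase gene Pak3 (1.23 ± 0.24) and the Slit-Robo GTPase-activating gene Srgap3 (1.19 ± 0.24) also rose, and the leucine-rich repeat gene Lrig3 fell (-1.20 ± 0.22).

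Netrin partners were higher in 9 of 20 cases and lower in 3. Lrrc4c, the postsynaptic ligand of Ntng1, was at 7.83 ± 0.23 (SD, n = 4) against 4.96 ± 0.19 (SD, n = 3), with a log2 fold change of 2.87 ± 0.15 SE (limma adjusted p = 5.89e-05). Dscam, an adhesion molecule that can bind netrin (1.76 ± 0.12), and Rgmb, a repulsive guidance ligand of Neo1 (1.5 ± 0.09), rose. Flrt2, a ligand of UNC5 receptors, fell (-1.24 ± 0.23). Paralogs went otherwise, as Flrt1 was called as higher (1.21 ± 0.12), Flrt3 was not called (-0.08 ± 0.07) and Rgma was called as lower (-0.45 ± 0.11).

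Signalling partners of Eph receptors were higher in 6 of 23 cases and lower in 1. Chn1, a Rac inhibitor that acts downstream of Epha4, rose by 1.70 ± 0.25, the Src-family kinase Fyn by 1.11 ± 0.19 and the adaptor Anks1b by 1.07 ± 0.14, and the exchange factor Vav3 fell (-0.85 ± 0.21). The other 16 were not called.

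Identical values recurred between arrays. Of the 39 guidance genes, 13 had the same value to 6 decimals on at least 3 of the 7 arrays (33.3%), beside 32.7% of all genes, and 7 had it on at least 4. Epha4, Efnb2, Epha7, Ephb3 and Unc5b were among the latter, with Ntn5 and Ephb6 at 6 and 5 arrays. A spread between such arrays is understated, and the cause of the ties was not tested.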

How the data were processed

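RNA of 7 sorted samples was measured on an Affymetrix mouse gene array. The deposited values are log2 levels per probe set, which the authors computed by RMA in Affymetrix Expression Console (per the submitters' processing notes, with no version). RMA corrects background, scales the arrays to 1 distribution and summarises probes, which can compress differences, and no detection calls were used. Of 35556 probe sets, 21789 had 1 gene symbol, 1621 several and 12146 none in the platform annotation. The probe set with the highest mean over the 7 arrays stood for its gene, 19938 in all, and every family member is named. Of the partner lists, the 4 called genes with the largest change each are named, with the listed paralogs of Flrt2 and Rgmb. The members and lists were chosen with earlier results of these data known.

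Groups were compared in R 4.3.3 with lmFit and eBayes of limma 3.58.1, with Benjamini-Hochberg adjustment over all genes and a threshold of 0.05. Tables and figures were made in Python 3.11.15 (numpy 2.4.6, pandas 2.3.3, matplotlib 3.10.9). On simulated data for 19938 genes, with independent normal noise, 50 genes were changed at each fold. The fit found 98% of genes changed 4-fold, 84% of those changed 2-fold and 56% of those changed 1.5-fold, and called 7 unchanged genes. On the real arrays 3489 genes were called and many values were tied, so these shares may not hold there. The number of arrays limits the precision. Alternatives were other eBayes options, scaling, probe set choices, a filter on dim genes, array weights, a 1.5-fold test, a replicate block and arrays left out.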

Additional observations from a re-analysis of the deposited data

Results flagged for a closer look

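In the group of 4 YFP-positive arrays, the gap between the highest or lowest array and its neighbour exceeded Dixon's 95% critical value for 5 of 51 genes and marker lists examined, and chance gives about 1 in 20. Efna2 was at 6.45 on array 3 and at 6.39 on the other arrays. Ephb3 was at 6.50 on array 4 and at 6.36 on the others. Ephb6 was at 5.17 on array 1 and at 5.09 on the others. In these 3 genes the other arrays shared 1 value, so the gap was the whole range, which was at most 0.14. Ntn3 was at 5.78 on array 4, against 5.54 for the next highest. Unc5b was at 5.17 on array 1, against 5.42 for the next lowest.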

How the results depend on the processing

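With eBayes trend and robust options, a median centring of arrays, or a further quantile normalization, the guidance genes kept their directions and calls. With every probe set tested, the probe sets used here kept theirs. The other probe set of Ntng1 was called there and that of Ephb1 was not, unlike the probe sets used, as given above. Against a 1.5-fold difference 1 guidance gene, a ligand, was higher and 0 lower, 0 receptors were called, 8 partners were higher and 0 lower, and 1027 of all genes differed. Without the dimmest genes 2 ligands were lower and 2 receptors higher, since Epha5 and Epha6 were not tested there, and with array weights 2 ligands were lower. Partners lower were 5 when quantile normalized again and 4 without YFP-positive arrays 3 and 4, where 0 ligands were lower. Leaving out each array in turn gave 4 to 7 higher guidance genes, 0 to 1 lower ligands, 2 to 4 higher receptors and 1 to 6 lower partners. Calls over all genes numbered 2368 to 3337 in those fits, against 3489 with all arrays. Same-numbered arrays of both groups did not deviate together (r over genes 0.01, -0.09 and 0.04). These values cannot show whether such arrays came from the same embryos, and the labels do not say. With the replicate block 5 guidance genes were higher and 1 lower, the receptor Ephb1, with 0 ligands and 3 partners lower, and 2509 of all genes differed. Signs turned only for genes not called. Efna2 was -0.1472 to 0.3057 over arrays left out in turn, Efnb1 -0.0899 to 0.0394, Epha4 -0.0541 to 0.1036, Epha10 -0.0045 to 0.0841, Ntn5 -0.0482 to 0.0 and Robo2 -0.1146 to 0.2946. With the replicate block Efnb1 was 0.0394 and Epha4 -0.0179, with array weights Epha4 was -0.0268 and Robo2 -0.0832, and without YFP-positive arrays 3 and 4 Efnb1 was 0.0644 and the change of Efnb1 minus Efnb2 was 0.0618. The cause was not tested.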
